A study of Mus musculus with 22 samples.

Results

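RAD21 is the kleisin subunit of cohesin, and its binding was compared between wild-type (WT) and Pcgf6 knockout (KO) small intestinal crypts of the Villin line. The peaks were taken from 2 chromatin immunoprecipitation sequencing (ChIP-seq) lists, 1 library for each genotype. The WT list held 20653 peaks and the KO list 17762 on chromosomes 1 to 19, X and Y, which is 38415 of the 190797 peaks in the 16 peak lists of the series. A WT peak was called kept when a KO peak overlapped it by at least 1 bp and lost when none did. A KO peak with no WT overlap was called new.

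The series mapped Polycomb proteins, their histone mark, CTCF and RAD21 by ChIP-seq in mouse crypts and embryonic stem cells, in 22 samples of which 6 were inputs. Both RAD21 libraries came from C57BL/6 crypt epithelium fixed in 1% formaldehyde for 15 min and sonicated to 500 bp. The design text, which is written of RNA samples, gives male mice of 8 to 12 weeks with crypts taken 7 days after tamoxifen in the Villin line. Villin drives Cre in the intestinal epithelium, so other cells of a crypt preparation would keep the gene. Whether the WT mice carried Cre or received tamoxifen, and whether animals were pooled, is not given in the sources used here.

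Cohesin is a ring that holds and extrudes chromatin loops, and it is halted at sites bound by the zinc finger protein CTCF. It also sits at promoters and enhancers of active genes, where peaks are usually weaker and often lack CTCF. PCGF6 is the defining subunit of the variant Polycomb complex PRC1.6, which contains MGA, MAX and E2F6, binds promoters with E-box and E2F sites, and represses germline genes. RING1B is a ubiquitin ligase of PRC1 complexes and makes the mark H2AK119ub1.

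Each deposited peak carries a score, the −log10 of a p or q value, and no peak scored under 10. Scores grow with sequencing depth as well as with binding, and the read depth behind the lists is not given in the sources used here. With 1 library for each genotype there is no replicate check and no test. The intervals below are exact 95% Clopper-Pearson intervals over peaks or genes and cover counting error only. They say nothing of how far 2 libraries of the same genotype would differ.

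Promoter sequences show the kind of start site at which RAD21 was lost or kept. The windows run from 250 bases before to 50 bases after the start, come from RefSeq (GRCm38.p6, the mm10 build of the peak lists), and are printed on the gene's strand. Capitals mark the letters CACGTG, an E-box, and the CTCF core CCANNAGGGGGC, CCANNAGGTGGC, CCANNAGAGGGC or CCANNAGATGGC, searched on both strands. Only exact matches are marked, so an unmarked window may still hold a close variant of the core. The first pair lost RAD21 at a place that had CTCF peaks in both genotypes: Atl1 (chr12:69892855-69893154, + strand), which encodes an endoplasmic reticulum GTPase, and Fam3c (chr6:22356032-22356331, − strand), which encodes a secreted protein.
Atl1: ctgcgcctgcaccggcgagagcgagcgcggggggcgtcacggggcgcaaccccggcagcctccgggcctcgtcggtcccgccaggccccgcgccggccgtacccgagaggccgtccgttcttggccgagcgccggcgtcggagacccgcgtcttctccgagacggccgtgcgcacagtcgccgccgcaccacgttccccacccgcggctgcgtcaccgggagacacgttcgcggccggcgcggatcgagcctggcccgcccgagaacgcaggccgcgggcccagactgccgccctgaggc
Fam3c: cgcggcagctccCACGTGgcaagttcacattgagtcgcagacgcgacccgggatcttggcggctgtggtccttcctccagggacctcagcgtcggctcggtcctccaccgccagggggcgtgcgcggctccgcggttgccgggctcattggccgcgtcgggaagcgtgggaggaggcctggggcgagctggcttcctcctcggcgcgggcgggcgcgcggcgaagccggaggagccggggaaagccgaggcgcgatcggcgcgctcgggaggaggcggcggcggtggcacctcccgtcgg
The second pair lost RAD21 at a place without a CTCF peak: Ppp1r12a (chr10:108161848-108162147, + strand), which encodes a subunit of myosin phosphatase, and Rreb1 (chr13:37825788-37826087, + strand), which encodes a zinc finger transcription factor.
Ppp1r12a: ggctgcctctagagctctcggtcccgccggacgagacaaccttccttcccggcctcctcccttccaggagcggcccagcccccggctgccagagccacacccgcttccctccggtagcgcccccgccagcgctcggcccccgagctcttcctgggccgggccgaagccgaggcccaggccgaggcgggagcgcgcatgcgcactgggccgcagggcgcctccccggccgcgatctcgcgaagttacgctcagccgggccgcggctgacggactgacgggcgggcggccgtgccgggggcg
Rreb1: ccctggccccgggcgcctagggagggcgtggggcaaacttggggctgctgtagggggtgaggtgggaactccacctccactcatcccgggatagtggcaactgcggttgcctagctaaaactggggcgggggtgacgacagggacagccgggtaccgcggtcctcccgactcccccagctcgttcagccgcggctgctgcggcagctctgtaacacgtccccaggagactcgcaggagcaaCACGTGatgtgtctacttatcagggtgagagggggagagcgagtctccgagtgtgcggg
The third pair was chosen from promoters that kept RAD21 and held a CTCF core, as 82 of 1463 windows under a kept peak did. The core in this pair is thus no result. The pair is Snx18 (chr13:113618515-113618814, − strand), which encodes a sorting nexin, and Uqcrc1 (chr9:108936398-108936697, + strand), which encodes a subunit of respiratory complex III.
Snx18: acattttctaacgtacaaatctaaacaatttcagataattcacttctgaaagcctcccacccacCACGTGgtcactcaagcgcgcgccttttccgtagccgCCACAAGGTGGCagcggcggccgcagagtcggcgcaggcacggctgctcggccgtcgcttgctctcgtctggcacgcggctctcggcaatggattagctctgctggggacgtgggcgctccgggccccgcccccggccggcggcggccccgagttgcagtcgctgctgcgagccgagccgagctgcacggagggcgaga
Uqcrc1: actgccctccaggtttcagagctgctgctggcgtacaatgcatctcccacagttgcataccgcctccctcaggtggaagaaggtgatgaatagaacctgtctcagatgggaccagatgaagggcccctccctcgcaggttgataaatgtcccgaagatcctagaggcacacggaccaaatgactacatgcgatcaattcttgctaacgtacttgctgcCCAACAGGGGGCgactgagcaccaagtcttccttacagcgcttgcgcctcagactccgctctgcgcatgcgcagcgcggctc
The RAD21 score over the Snx18 window was 193 in WT and 92.8 in KO. Over the Uqcrc1 window it was 120 in WT and 78.7 in KO. The Atl1, Fam3c, Ppp1r12a and Rreb1 windows had WT scores of 162, 94.6, 37.3 and 33.1 and no KO peak.

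Across all promoter windows, the CTCF core was more frequent where RAD21 was kept. It was present in 82 of 1463 windows under a kept peak (5.60%, 4.48 to 6.91) and in 26 of 1536 under a lost peak (1.69%, 1.11 to 2.47). Among all 21263 windows 1.06% held it, and among the 18079 windows without RAD21 0.620% did. With CTCF the share was 6.72% under kept (5.36 to 8.29) and 3.84% under lost peaks (2.45 to 5.71). Without CTCF it was 0.735% under kept (0.0892 to 2.63) and 0.320% under lost peaks (0.0661 to 0.933). Within each CTCF class the share was the lower under lost peaks, and the intervals of kept and lost windows overlapped. Such an overlap does not show that the shares are equal.

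For the other motifs the intervals of kept and lost promoters also overlapped, which again does not show equal shares. An E-box was found in 9.98% of kept windows (8.49 to 11.6) and 10.9% of lost windows (9.42 to 12.6), against 7.84% of all windows. The E2F site GGCGGGAA was found in 3.55% of kept and 4.04% of lost windows, against 2.85% of all. For the ETS site CCGGAAG the shares were 17.7% (15.8 to 19.8) and 21.2% (19.1 to 23.3), against 11.6% of all windows. The median GC content was 62.3% in kept, 64.7% in lost and 56.3% in all windows. None of these motifs contains another, and a match is a description of the letters and not a bound site.

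Most RAD21 peaks were found in both genotypes. Of the WT peaks, 15620 were kept (75.6%, 75.0 to 76.2) and 5033 were lost. Of the KO peaks, 15724 had a WT peak (88.5%, 88.0 to 89.0) and 2038 were new. With the WT list shortened to the 17762 strongest peaks, the length of the KO list, 2815 were lost and 2701 new. The RAD21 peaks covered 14.6 Mb in WT and 10.9 Mb in KO, and the median width was 618 bp in WT and 554 bp in KO. The lists for CTCF, the factor most like RAD21, had 90.8% of WT and 92.3% of KO peaks matched.

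Matches were almost all simple. A kept WT peak had 1 KO partner in 15494 cases, 2 in 123 and 3 in 3. A lost peak was seldom a peak that had slid to the side: 7 of the lost peaks had a KO peak within 100 bp and 221 had one within 1000 bp. The nearest KO peak lay at a median of 20.9 kb from a lost peak. The share lost varied little by chromosome, from 22.2% to 26.1% over 20 chromosomes.

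Lost and new peaks were weak. The median score was 39.3 for kept WT peaks and 14.3 for lost ones, and in KO it was 34.8 for matched peaks and 14.3 for new ones. In the weakest decile of WT peaks 79.7% were lost (77.9 to 81.4), in decile 5 from the bottom 14.2%, and in the strongest decile 10 of 2066 (0.484%, 0.232 to 0.888). In KO the share of new peaks was 42.8% in the weakest decile and 1 of 1777 in the strongest. Lost and new peaks therefore sat near the score at which a peak is listed at all.

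**Figure D1:**
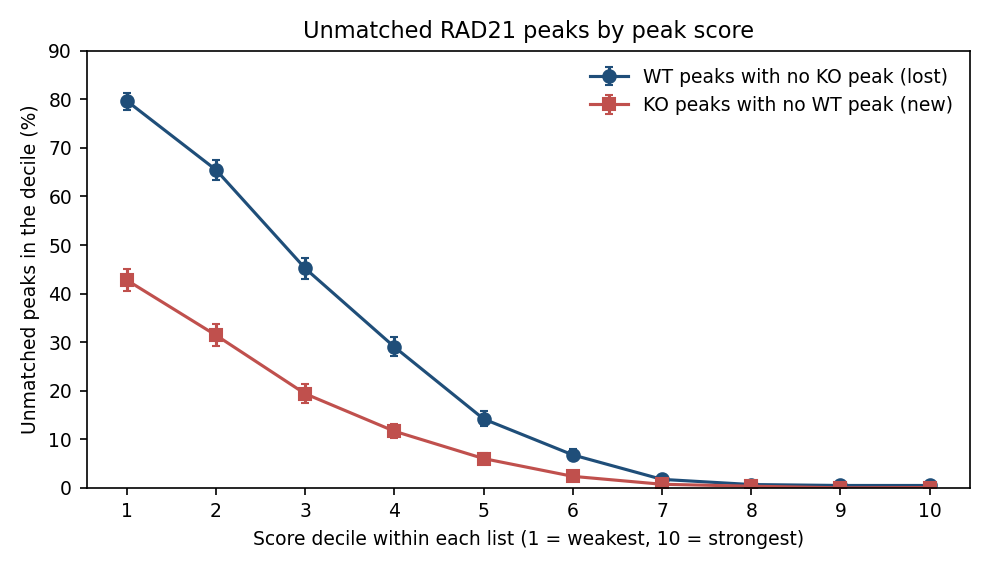
Share of unmatched RAD21 peaks (%, y axis) in each score decile of its own list (x axis, 1 weakest to 10 strongest), for WT peaks with no KO peak (circles) and KO peaks with no WT peak (squares), with exact 95% intervals. The lost share goes from 79.7% to 0.484% and the new share from 42.8% to 0.0563%, and the WT line lies above the KO line in every decile.

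Width followed score. The median width was 649.5 bp for kept and 501 bp for lost WT peaks, and 577 bp for matched and 394 bp for new KO peaks. Within the weakest score quintile the lost share was 70.9% in the narrower part and 74.3% in the wider part, and within the strongest quintile it was 0.483% and 0.485%. At equal score, width thus made little difference to whether a peak was lost.

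The peaks carry serial numbers in genome order, which ran to 24152 in WT and 20794 in KO, and 85.5% and 85.4% of the numbers were present. What was called at the absent numbers is not in the lists. No KO number was absent between the KO peaks on either side of 59.4% of lost peaks (58.0 to 60.8), and no WT number around 67.2% of new peaks (65.1 to 69.3). Over all gaps between neighbouring peaks, 86.6% in KO and 86.2% in WT had no absent number. Absent numbers were thus more frequent around lost and new peaks than over all gaps. The length of the gaps was not taken into account. For 23 of the 30 strongest lost peaks no KO number was absent.

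In the peaks found in both lists, the KO score was somewhat lower. Over 15448 peaks with a partner each way, the median log2 ratio of KO to WT score was −0.17 and the KO score was the lower of the pair in 64.2%. The part of read depth in this shift was not tested. Places are compared below within the same pair of libraries.

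**Figure D2:**
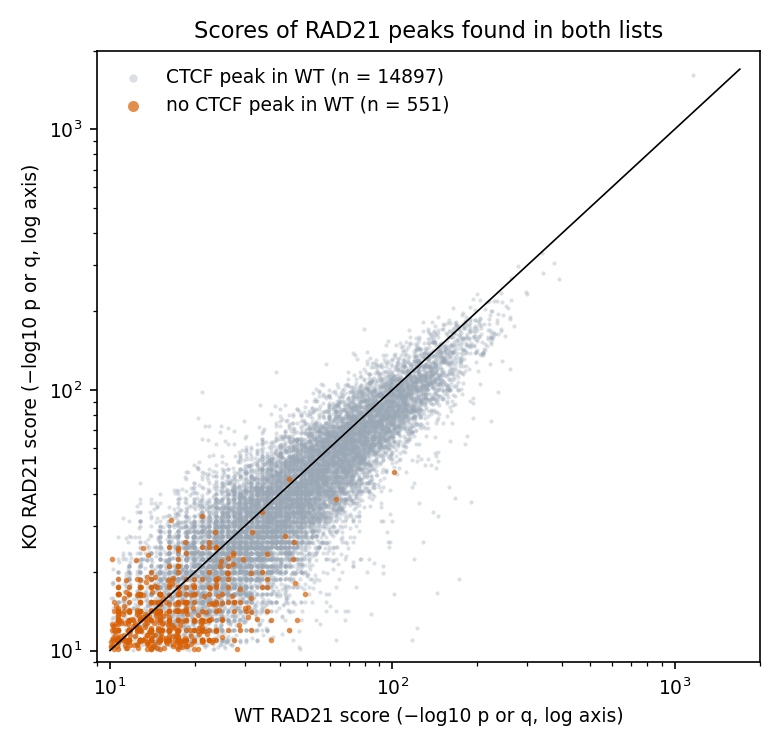
KO RAD21 score against WT RAD21 score (−log10 p or q, both axes on a log scale) for the 15448 peaks with a partner each way, with (grey, n = 14897) and without (orange, n = 551) a WT CTCF peak. The black line marks equal scores, 64.2% of the points lie below it, and most points without CTCF lie near the lowest scores.

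CTCF marked the kept peaks. A WT CTCF peak lay on 96.4% of kept (96.1 to 96.7) and 58.6% of lost RAD21 peaks (57.2 to 59.9), and a KO CTCF peak lay on 79.0% of new ones (77.1 to 80.7). Of the 18000 WT RAD21 peaks with CTCF 16.4% were lost (15.8 to 16.9), and of the 2653 without CTCF 78.6% were lost (77.0 to 80.1). RAD21 peaks without CTCF numbered 2653 in WT and 1155 in KO, a ratio of 0.435, while those with CTCF numbered 18000 and 16607, a ratio of 0.923.

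Peaks without CTCF were also weak, with a median WT score of 12.8, so the shares were compared within score quintiles. In the weakest score quintile 62.2% of peaks with CTCF (60.1 to 64.2) and 84.6% of those without (82.9 to 86.1) were lost. In the next quintile the shares were 31.9% and 67.4%, and in the middle quintile 9.44% (8.56 to 10.4) and 45.8% (36.6 to 55.2). Above that few peaks without CTCF were listed, and 0 of 9 (upper limit 33.6%) and 1 of 2 were lost. The lower rate of loss at CTCF sites thus held in each score class that could be compared.

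**Figure D3:**
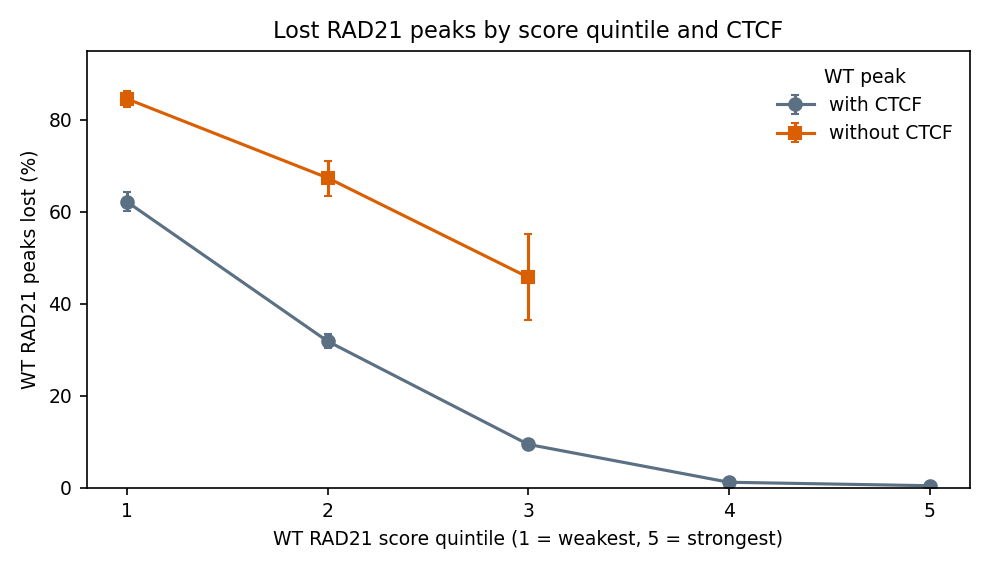
Share of WT RAD21 peaks lost (%, y axis) by WT score quintile (x axis, 1 weakest to 5 strongest), with CTCF (circles) and without CTCF (squares), with exact 95% intervals. The upper 2 quintiles without CTCF held 9 and 2 peaks and are not drawn, and in the 3 others the squares lie above the circles, at 84.6% against 62.2% in the weakest.

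The list length and the score limit bore on this. When the WT list was shortened to its 17762 strongest peaks, the length of the KO list, 6.45% of WT peaks (6.10 to 6.82) and 6.50% of KO peaks (6.14 to 6.88) had no CTCF. With both lists cut at a score of 20 instead, 265 WT peaks (1.92%, 1.70 to 2.16) and 65 KO peaks (0.523%, 0.404 to 0.666) had none. The lower share of CTCF-free peaks in KO was thus seen as deposited and at a score of 20, and not at equal length. Unmatched CTCF-free peaks were more frequent in WT than in KO under each of the 3 rules. The shares were 78.6% of WT and 37.1% of KO CTCF-free peaks as deposited, and 90.6% (86.4 to 93.8) and 41.5% (29.4 to 54.4) at a score of 20. At equal length they were 68.5% (65.7 to 71.2) and 57.2% (54.3 to 60.1), and with CTCF 12.2% and 12.3%.

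CTCF itself mostly stayed where RAD21 was lost. Of the 2948 lost RAD21 peaks with CTCF in WT, 2599 also had CTCF in KO (88.2%, 86.9 to 89.3), against 99.0% of kept ones. The median WT CTCF score was 53.8 at lost and 131 at kept RAD21 peaks. Where CTCF was listed in both genotypes, the log2 ratio of KO to WT CTCF score was taken. Its median was −0.05 at lost, −0.01 at kept and 0.07 at new RAD21 peaks. The quartiles were −0.35 and 0.22 at lost and −0.21 and 0.20 at kept peaks. The 349 lost and 154 kept RAD21 peaks whose WT CTCF peak had no KO match are not in these ratios. Where CTCF was listed in WT but not in KO, 349 of 503 RAD21 peaks were lost (69.4%), and where it was listed in neither, 79.0% were.

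RAD21 was lost most often at gene starts. Of the lost peaks 32.7% lay within 1 kb of a RefSeq start site of a protein-coding gene (31.4 to 34.0), against 10.4% of kept peaks (9.97 to 10.9) and 9.57% of new ones. The lost share was 50.2% at start sites (48.5 to 51.9), 30.5% within 1 kb of another gene end and 17.6% between genes, and 1410 of 7423 peaks inside genes were lost. Start windows were on hand for 17492 of 21887 protein-coding genes, so some starts are counted among other gene ends.

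**Figure D4:**
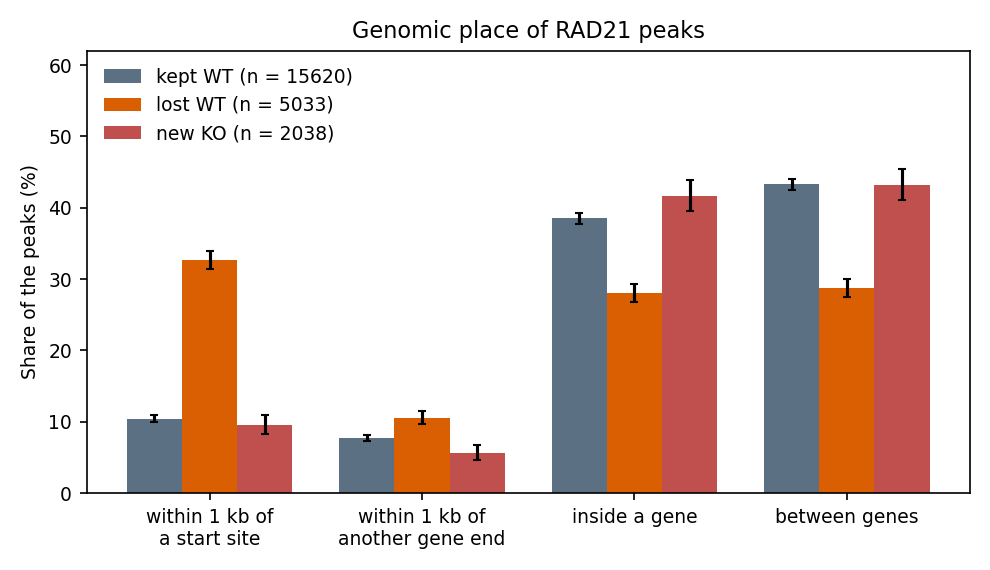
Share of peaks (%, y axis) by genomic place (x axis) for kept WT, lost WT and new KO RAD21 peaks, with exact 95% intervals. Start sites take 32.7% of lost, 10.4% of kept and 9.57% of new peaks, and the kept and new bars are alike there.

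The start-site difference was seen with CTCF present too. Among WT peaks with CTCF the lost share was 31.4% at start sites (29.3 to 33.5), 19.4% at other gene ends, 15.0% inside genes and 13.2% between genes. In the middle quintile it was 16.9% at start sites (13.5 to 20.8) and 8.24% between genes (6.96 to 9.67), and in the strongest quintile 2.41% and 0.199%. Without CTCF the share was high everywhere, at 79.7%, 77.9%, 81.6% and 74.3% in the same order of places. Peaks at start sites with CTCF numbered 1999 in WT and 1362 in KO, a ratio of 0.681, while between genes the ratio with CTCF was 0.968.

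Kept peaks at start sites had lower KO scores as well. Among pairs with CTCF in the upper 3 score quintiles, the median log2 ratio of KO to WT score was −0.39 at 953 start sites, −0.29 at other gene ends, −0.18 inside genes and −0.19 between genes. The KO score was the lower of the pair at 80.1% of the start sites and at 68.3% of the places between genes.

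The start-site difference also remained in lists of equal length. There 35.1% of WT start-site peaks (33.1 to 37.1) had no KO peak and 19.3% of KO start-site peaks (17.5 to 21.2) had no WT peak. Away from start sites the shares were 13.0% and 14.7%. Start sites made up 12.8% of the shortened WT list and 10.2% of the KO list.

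PCGF6 sites were compared with the AhCre WT list, since the PCGF6 libraries came from crypts of that other Cre line. A PCGF6 peak lay on 44.4% of lost (43.1 to 45.8), 23.8% of kept (23.1 to 24.5) and 18.4% of new RAD21 peaks. Among RAD21 peaks with CTCF 20.6% were lost with PCGF6 (19.4 to 21.9) and 15.1% without (14.5 to 15.7). Among those without CTCF the shares were 77.9% with PCGF6 (75.9 to 79.8) and 80.0% without (77.2 to 82.6), with overlapping intervals. The part of promoter position in the first of these differences was not tested.

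Loss at PCGF6 sites was about as frequent whether or not PCGF6 was still listed in the AhCre KO. The lost share was 36.9% where PCGF6 was listed in WT only (35.4 to 38.4) and 39.0% where a KO PCGF6 peak lay there (36.8 to 41.2). RING1B of the Villin line lay on 11.8% of lost and 5.28% of kept RAD21 peaks. The lost share was 41.9% with RING1B (39.3 to 44.5) and 23.1% without. RAD21 peaks with RING1B were weaker, with a median WT score of 19.9 against 30.3. The lost share was the higher with RING1B in each score quintile. It was 78.1% (74.0 to 81.7) and 71.9% (70.4 to 73.3) in the weakest, and 19.8% (14.8 to 25.6) and 9.94% (9.02 to 10.9) in the middle one. H2AK119ub1 lay on 4.73% of lost (4.16 to 5.35) and 5.16% of kept peaks (4.82 to 5.52), with overlapping intervals. RAD21 peaks with the mark were stronger, with a median WT score of 38.7 against 28.9 without it. In each score quintile the lost share was the higher with the mark, and in the 3 weakest the intervals overlapped. It was 2.65% with (1.22 to 4.97) and 0.290% without (0.145 to 0.519) in the strongest quintile, and 78.7% (71.6 to 84.7) and 72.3% (70.9 to 73.7) in the weakest. The part of CTCF and of promoter position in the RING1B and H2AK119ub1 differences was not tested.

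Strong peaks were lost at few places. The 30 strongest lost peaks scored from 51.8 to 162, and 29 of them had CTCF in both genotypes. In the upper 2 score quintiles of all WT peaks, 4121 and 4129 had CTCF and 9 and 2 had none. PCGF6 lay on 19 of the 30, RING1B on 11, and 15 were within 1 kb of a gene end. Over all WT RAD21 peaks PCGF6 lay on 28.8%, RING1B on 6.87%, and 22.2% were near a gene end. The 30 strongest new peaks scored from 35.9 to 98.8, and all 30 had CTCF in both genotypes. Of these, 1 had PCGF6, none had RING1B, and 1 was near a gene end. Over all new peaks WT PCGF6 lay on 18.4%, WT RING1B on 3.24%, and 13.9% were near a gene end. Of all KO peaks with a score of 20 or more, 0.523% had no CTCF. CTCF at the strongest lost and new peaks thus does not set them apart from other strong peaks.

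Strong lost peaks differed in what CTCF did. At chr5:124899765-124900662, 11.1 kb from the zinc finger gene Zfp664, RAD21 scored 139 in WT only and CTCF scored 242 in WT and 24.2 in KO. At chr9:71073552-71074340, 36.3 kb from the water channel gene Aqp9, RAD21 scored 98.1 in WT only and CTCF scored 122 and 19.4. At these 2 places the CTCF score was far lower in KO as well.

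At other strong lost peaks the CTCF score was higher in KO. Inside Synpo, an actin-binding protein gene, RAD21 scored 118 in WT only and CTCF scored 35.5 in WT and 74.6 in KO. Inside the myosin gene Myo15b RAD21 scored 112 in WT only and CTCF scored 87.0 and 147. At the shared start of Atl1 and the kinase gene Map4k5, the strongest lost peak, CTCF scored 43.2 and 69.9. Of the 30 strongest lost peaks 29 had CTCF in both genotypes, and its score was lower in KO at 17 of the 29. Over all lost peaks with CTCF in both it was lower at 1448 of 2599, a share close to this.

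New peaks showed the reverse case. The strongest, at chr2:164678922-164679564, lay 4.84 kb from Wfdc11, of a family of protease inhibitor genes, and scored 98.8 in KO only, and CTCF there scored 17.1 in WT and 265 in KO. Near the Fc receptor gene Fcgr2b (16.4 kb) a new peak scored 54.4, with CTCF at 23.9 and 88.2, and inside Tmem72 another scored 54.3, with CTCF at 19.5 and 73.0. The gene Slc6a11, a GABA transporter, had a new peak of 46.9 at its end and another of 35.9 inside it, with CTCF at 215 and 321 and at 23.0 and 82.0. The CTCF score was lower in KO at 6 of the 30 strongest new peaks, and at 670 of the 1540 new peaks with CTCF in both genotypes.

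The strongest peak of both RAD21 lists, at chr2:98666714-98667237, scored 1161 in WT and 1620 in KO and lay 1035 kb from the nearest protein-coding gene. PCGF6 scored 793 in WT and 1458 in KO there, and RING1B 1982 and 2403. The place was thus strong in lists of other factors too, and PCGF6 scored higher there in the Pcgf6 knockout. Its score is therefore no sign of RAD21 binding in particular. The next kept peak, at chr1:88287219-88288444, lay between genes, 9.58 kb from Hjurp, and scored 388 and 266. The strongest kept peaks at genes had strong CTCF. At the start of Lif, a cytokine gene, RAD21 scored 372 and 306. At Hjurp, which encodes the chaperone of centromeric histone, it scored 343 and 280, and at Id2, an inhibitor of helix-loop-helix factors, 262 and 222.

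Some strong kept peaks had a far lower KO score. Among the 1544 pairs of the strongest decile, the rank fell most at the following places, named by that rule. At Foxq1, a forkhead factor gene, RAD21 scored 118 in WT and 11.0 in KO over a WT peak of 2834 bp, with CTCF at 201 and 265. At Ptpre, a tyrosine phosphatase gene, it scored 122 and 12.2, and inside Epc1, which encodes a NuA4 acetyltransferase subunit, 172 and 18.8.

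The CTCF score at these places was not lower in proportion. The places were picked by their fall in RAD21 rank and not by CTCF, so a smaller change in CTCF is no result. At Dagla, a lipase gene, RAD21 scored 144 and 16.6 while CTCF scored 342 and 298. At Ptpru, another tyrosine phosphatase gene, RAD21 scored 190 and 37.3 while CTCF scored 361 and 333. At Emc4, which encodes a subunit of a membrane protein insertase, RAD21 scored 128 and 26.2 while CTCF scored 234 and 204. Of the opposite kind, inside the cytokine gene Il34 RAD21 scored 102 and 136, and near Aire (1.23 kb), which encodes a thymic transcriptional regulator, 102 and 137.

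RAD21 peaks without CTCF were strongest at promoters. Among kept ones, the start of Arrdc3, an arrestin-domain gene, scored 102 in WT and 48.3 in KO, that of Cblb, a ubiquitin ligase gene, 63.1 and 38.3, and that of the immediate early gene Ier5 49.1 and 16.4. The start of Ski, which encodes a repressor of SMAD signalling, scored 46.1 and 13.1, and that of Ezr, which encodes ezrin of the brush border, 44.6 and 22.4. In each of these the KO score was the lower. At another strong kept peak without CTCF, chr19:5803042-5804189 between genes, the KO score was the higher (43.1 in WT and 45.4 in KO). Over all 551 pairs without CTCF the KO score was the lower in 65.3%, against 64.1% of pairs with CTCF.

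Among lost peaks without CTCF, the strongest was at the start of Ror2, a receptor for Wnt5a, at 77.6. Epcam, the epithelial adhesion molecule, and Tgfbr2, a receptor for TGF-beta, each lost a start-site peak of 30.3, and Baiap2l1, an actin regulator gene, another of 30.3. Around the Epcam peak 4 KO peak numbers were absent from the list, and around the Tgfbr2 and Baiap2l1 peaks 1 each. What was called at those numbers is not in the list. At Ror2 none was absent.

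By gene, loss was far more frequent than gain. Within 1 kb of either end 4866 of 21887 protein-coding genes had a WT peak and 3066 a KO peak. The background is the share over all genes: 41.1% of genes with a WT peak lost it (2000 genes), and 1.62% of genes without a WT peak gained one (276 genes), while 2768 had peaks in both. At start sites alone 1691 of 3422 genes lost RAD21. In lists of equal length 1016 genes lost and 491 gained RAD21, so the gap between loss and gain was smaller there.

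Lost genes differed from the rest in CTCF and place. The highest peak of a lost gene had CTCF at 41.8% of them, against 87.9% of genes with peaks in both, and lay at a start site in 75.7% against 55.1%. A PCGF6 peak lay within 1 kb of an end of 79.8% of lost genes, 72.7% of genes with peaks in both and 39.9% of all genes. The median WT score was 13.9 at lost genes and 33.3 at genes with both, and 19 lost genes scored 50 or more.

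Among the 15 genes with the strongest lost peaks were 2 metabolic genes and a repair gene. Car2, a carbonic anhydrase gene, lost a peak of 58.3 at an end, with CTCF within 1 kb at 50.4 in WT and 45.8 in KO. Aldh7a1, an aldehyde dehydrogenase gene, lost one of 56.7, with CTCF at 201 and 218. Cyren, which encodes an inhibitor of end joining, lost one of 51.9, with CTCF at 95.1 and 114. CTCF was thus listed in both genotypes at each of them.

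Gained genes had weaker peaks. The highest was at Slc6a11, and the next were 35.3 at Eci2, a fatty acid oxidation gene, 31.4 at Esr2, the oestrogen receptor beta gene, and 31.4 at the ribosomal protein gene Rpl19. Map1lc3b, an autophagy gene, shared a peak of 29.7 with its neighbour Zcchc14. Of the gained genes 56.2% had CTCF at the peak and none reached a score of 50.

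The gene lists were read against the background of 41.1% lost. Among 22 cohesin and CTCF genes 6 had a WT peak and 3 lost it: Pds5b, a cohesin regulator, at 39.3, Stag2, a core subunit, at 37.3, and Cdca5, which encodes sororin, at 20.6. Pds5a (61.5 in WT and 73.0 in KO), the ring subunit Smc3 (23.7 and 35.2) and the acetyltransferase Esco1 (29.7 and 24.8) kept theirs.

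Of 16 PRC1.6 genes 5 had a WT peak and 3 lost it, which is few genes for any share. E2f6 lost a peak of 15.7, Pcgf6 itself one of 11.7 and Wdr5, a shared chromatin subunit, one of 10.2, all near the lowest score listed. Mga, the scaffold of the complex, kept a strong one (91.2 and 70.9), and Rybp kept one of 21.1 and 12.9. Of 7 other Polycomb genes with a WT peak 5 lost it, among them Cbx2 (21.1), Pcgf5 (17.4), Ezh1 (15.1) and Cbx8 (11.7). These lists do not check the knockout, since RAD21 at the Pcgf6 gene does not measure the protein.

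Most stem cell genes with a peak kept it. Of 17 intestinal stem cell genes 7 had a WT peak, 6 kept it and 1 lost it: the stem cell receptor Lgr5, whose WT score of 10.6 was at the limit. Ephb3, an ephrin receptor that sorts crypt cells, scored 145 and 143, the Wnt-antagonising ubiquitin ligase Rnf43 102 and 113, and the RNA-binding Msi1 76.1 and 45.4. The other kept ones were weaker, with Lrig1, a growth factor receptor antagonist, at 27.6 and 11.0, the factor Sox9 at 24.8 and 22.1 and Prom1 at 14.3 and 10.6. The adhesion receptor Cd44 gained a peak of 13.2.

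Enterocyte genes carried RAD21 most often among the lists. Of 20 genes 10 had a WT peak, 9 kept it and 1, the fatty acid binder Fabp2 (12.8), lost it. Apob, the lipoprotein scaffold, scored 149 and 129, and the differentiation factor Klf4 56.7 and 35.5. Weaker kept peaks included the glucose transporter Slc5a1 at 31.1 and 15.7 and the homeobox factor Cdx1 at 18.2 and 10.5, and the median WT score of the kept enterocyte genes was 32.3, near the 33.3 of all genes with peaks in both. All 3 goblet genes with a peak kept it, among them the mucin gene Muc2 (106 and 84.7) and Clca1 (77.9 and 51.7).

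Secretory and chemosensory genes were mixed. Of 26 tuft cell genes 6 had a WT peak. Sh2d6 (130 and 132) and the cation channel Trpm5 (83.3 and 50.9) kept theirs. The cytokine receptors Il4ra (14.3) and Il13ra1 (12.8) and the phospholipase Plcg2 (11.7) lost theirs, and the tuft factor Gfi1b gained one of 17.6. The enteroendocrine hormone secretin gene Sct lost a peak of 26.6 while the factor Nkx2-2 kept one (117 and 106), and the Notch ligand Dll4, of the Paneth list, lost one of 13.5.

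Of 30 Wnt and BMP genes 11 had a WT peak and 5 lost it, close to the background. The lost ones were weak, at 17.4 for Smad1, 13.9 for Tcf7l2, the main Wnt effector of the crypt, 13.9 for Smad4, 12.7 for Wnt6 and 10.6 for Id1, and none had CTCF at the peak. The Wnt receptor gene Fzd5 kept its peak with a score of 46.1 in WT and 13.9 in KO. Of 45 replication and cell cycle genes 12 had a WT peak and 6 lost it, among them Cdt1 (15.8) and Gmnn (14.7), while Mcm5, a helicase subunit, kept its own (85.1 and 64.3).

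Germline genes, the classic targets of PRC1.6, rarely carried RAD21. Of 44 genes 3 had a WT peak (6.82%, against 22.2% of all genes) and all 3 lost it: the oocyte factor Figla (30.3), the synaptonemal complex gene Syce2 (27.6) and the germ cell RNA-binding gene Dazl (15.1). CTCF within 1 kb scored 110 and 15.9 at Figla, 106 and 51.6 at Syce2 and 76.0 and 20.6 at Dazl in WT and KO. At these 3 genes, unlike the median lost peak, the CTCF score was lower in KO by more than the general shift.

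The remaining lists gave low counts. Of 39 Hox genes 6 had a WT peak, 5 kept it, 1 lost it (Hoxc5, 13.9) and Hoxc10 gained one (21.1), and the peak shared by Hoxa5 and Hoxa6 scored 72.8 in WT and 138 in KO. All 3 clustered protocadherin genes with a peak kept it. RAD21 was listed in WT at 24 of the 77 genes for cytosolic ribosomal proteins, 12 of the 24 lost it and 3 other genes gained a peak, with Rpl7 the strongest lost at 37.3.

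Marker lists of other cells were also counted. Of 18 mesenchymal and endothelial genes 5 had a WT peak and 1, Vim (15.2), lost it, while the collagen gene Col1a1 scored 147 and 141. None of 19 immune genes had a RAD21 peak in either list. A RAD21 peak is not a measure of expression, so these counts do not check the cell type of the preparation.

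**Figure D5:**
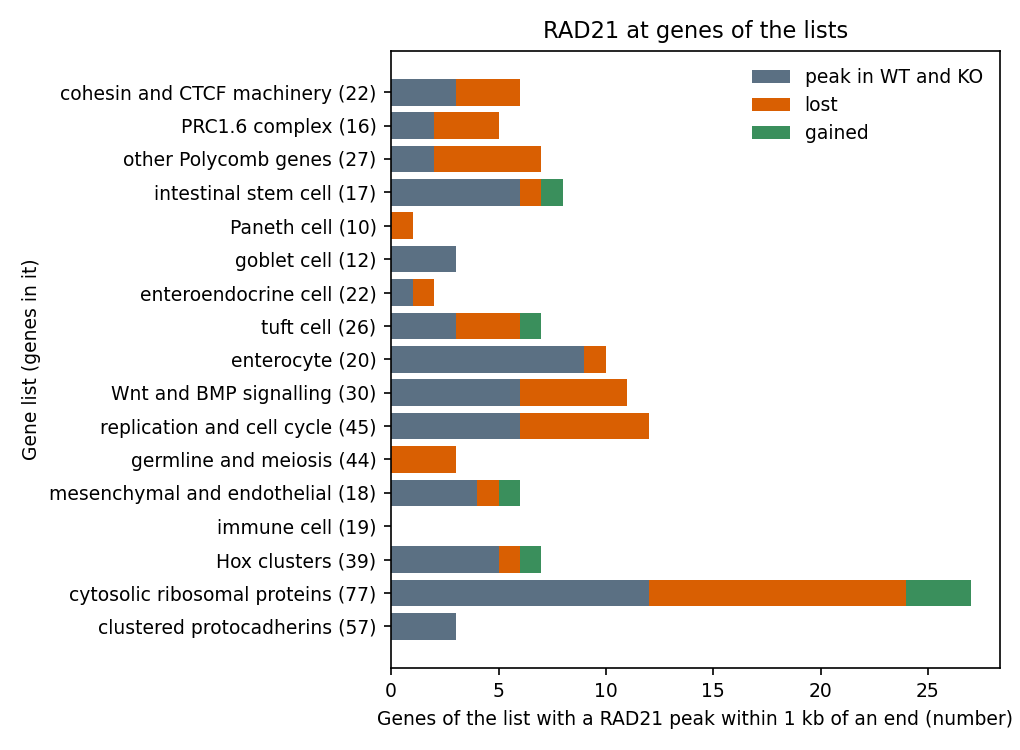
Number of genes with a RAD21 peak within 1 kb of an end (x axis) in each gene list (y axis, genes in the list in brackets), split into genes with a peak in both genotypes, lost and gained. The enterocyte bar holds 9 kept and 1 lost gene, the ribosomal bar 12 and 12, and the immune bar is empty.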

How the data were processed

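Per the labels, RAD21 was measured by ChIP-seq in 1 WT and 1 KO library of the Villin line. The authors deposited peak lists whose score column is a −log10 p or q value, with a lowest score of 10. Per the submitters' processing notes, Bowtie 1.2.2 and 1.1.2 and MACS2 2.1.1 were used with the builds mm10, dm6 and hg38. The read depth and the caller's settings are not given in the sources used here. The authors' deposited lists held 20655 WT and 17765 KO peaks, of which 2 and 3 on other chromosomes were left out.

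Peaks were matched by at least 1 bp in Python 3.11.15 with numpy 2.4.6, pandas 2.3.3 and scipy 1.17.1. The matching was checked against bedtools 2.31.1 on 4 pairs of lists, and 0 of them gave another count. In an altered copy of the WT list, 200 of 200 removed peaks were found as lost or touched a neighbour. A removed peak must be one or the other, so that count could not fail and does not check the matching. A gene had a peak within 1 kb of either end. It was lost when no KO peak lay there and its own WT peaks touched none either. Genes with both are given by their highest WT and KO scores, which can belong to different peaks. RefSeq gave genes and promoter windows (GRCm38.p6), and 501 of 502 list genes matched. CTCF and RING1B came from the Villin lists and PCGF6 from the AhCre lists.

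The genes named are the 15 strongest lost and gained, the strongest in both, the largest rank changes and list members. The strongest peaks outside genes, those without CTCF, and the Vil1 and Myc loci were chosen after their values were seen. The lists and the comparison were chosen with earlier results of these data known.
Values of a few list members and peaks are not reported here.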

Additional observations from a re-analysis of the deposited data

How the results depend on the processing

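Shares kept under other rules stayed near the reported 75.6% of WT and 88.5% of KO peaks when peaks of a list were joined or an overlap of 50% was asked for. They were 74.5% and 86.6% with peak centres within 500 bp, 76.7% and 89.0% with peaks up to 1000 bp apart, 81.9% and 91.3% at a score of 20, and 84.2% and 84.8% in lists of equal length. Lost peaks numbered 2496 at a score of 20, 1447 at 50 and 2815 at equal length, and new peaks 1083, 559 and 2701, so that at equal length lost and new peaks were close in number. Genes that lost RAD21 numbered 751, 310 and 1016 and genes that gained it 111, 56 and 491 in that order of settings. With windows of 5 kb 428 genes gained it. The lost share with CTCF was 17.5% by centres, 15.7% with peaks up to 1000 bp apart, 24.2% at a score of 50, 12.2% at equal length and 17.1% with CTCF within 1000 bp. Without CTCF it was 74.7% with peaks up to 1000 bp apart, 90.6% at a score of 20, 100% (3 of 3 peaks) at 50 and 68.5% at equal length. The share of lost peaks near a gene end was 39.0% within 1 kb, 53.0% within 5 kb and 32.7% at start sites only. Equal-length and score-20 make-up of the lists by CTCF was added after seeing the data. All 15 strongest lost genes were lost under the 7 settings that change the match or the lists, and the 15 gained genes under 6 of them. At a score of 50 none of the gained genes was left, since their peaks scored lower.

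No paired analysis was possible because each genotype had 1 library. No library was left out for the same reason, and no comparison has a replicate check. Scores depend on read depth, which is not given, so a lost peak is a peak not listed in KO at a score of 10 or more.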

Other observations

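The Vil1 gene encodes villin of the brush border, and its promoter is the one that drives Cre in this line. From 3 kb before the gene to its end WT had 1 RAD21 peak, of 489 bp and a score of 22.4. KO had 2, of 3085 bp with a score of 73.0 and of 2926 bp with a score of 12.2. The CTCF peak at the start scored 48.9 in WT over 1028 bp and 99.2 in KO over 1772 bp, and a second CTCF peak inside the gene, of 13.8, was listed in WT only. RING1B had no WT peak and 3 KO peaks, of 14.8, 15.9 and 14.8. H2AK119ub1 had no peak there in either genotype. Whether the WT mice carried the Cre transgene is not given in the sources used here, and its part in these values was not tested.

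At Myc, a Wnt target that drives crypt proliferation, the result depends on which peaks are joined. The highest RAD21 score within 1 kb of the gene was 44.6 in WT and 99.4 in KO. The KO value belongs to a peak of 1496 bp that reaches from before the 1 kb limit, where WT had 2 peaks, of 693 bp with a score of 114 and of 892 bp with a score of 18.6. Inside the gene WT had 1 peak of 2829 bp scoring 44.6, and KO had 2, of 1105 bp scoring 15.3 and of 1299 bp scoring 41.1. By peak, then, the KO scores at Myc were not above the WT ones.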
